A study of Mus musculus with 4 samples.

Results

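Transcripts of 46 genes that make ribosomes were followed in mouse thymocytes with and without Cd4-cre deletion of Chaf1b. The genes were taken from a fixed list of symbols, and all 46 were found among the 56239 genes of the deposited count table. They fall into 8 factors of the small nucleolar ribonucleoproteins (snoRNPs), 16 factors of the small ribosomal subunit, 13 of the large subunit, 4 of RNA polymerase I transcription, and 5 nucleolar proteins with several roles. Chaf1b encodes a part of CAF-1, which deposits histones behind the DNA replication fork. The cells were double-positive (DP) thymocytes, which carry both CD4 and CD8, sorted from C57BL/6 mice, and their polyadenylated RNA was sequenced. The 2 WT libraries came from mice with floxed Chaf1b alleles on both chromosomes, and the 2 KO libraries from mice with the same alleles plus Cd4-cre, which expresses Cre recombinase under control of Cd4. The title of the study concerns early development of invariant natural killer T cells, which arise from DP thymocytes. Cre driven by Cd4 also acts in the other cells that have expressed Cd4, and the labels do not say which exons are floxed or how many mice gave each library. The p-values therefore measure the spread between these libraries.

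Ribosomes are built in the nucleolus, where RNA polymerase I copies the ribosomal DNA into a long precursor. Small nucleolar RNAs, held in C/D or H/ACA box snoRNPs, guide methylation and pseudouridylation of that precursor. Assembly factors then fold it, cleave it and load it with ribosomal proteins, along separate routes for the small and the large subunit. In thymocytes, demand for ribosomes is known to be high in the dividing stages and low in the small resting cells that make up most of the DP population. Transcripts of these factors are commonly read as a marker of growth and are known targets of the transcription factor Myc.

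Library totals ran from 21068760 to 27369874 counts, and every one of the 46 genes had between 169 and 26550 counts in each library. Values are given as CPM, counts scaled to a common library size with TMM factors. Chaf1b itself had WT values of 27.8 and 31.7 CPM (replicate 1 first, here and throughout) and KO values of 12.2 and 14.8 CPM, which did not overlap. Its log2 fold change was -1.15 ± 0.17 (standard error; adjusted p = 0.0172 by edgeR with the replicate number as a term, 0.267 without). Xist marked replicate 1 of both genotypes as female and Ddx3y marked replicate 2 as male, so sex and replicate number are the same split here. Markers fixed for DP cells, among them Cd4, Cd8a and Rag1, summed to between 14179 and 18105 CPM, while those of B cells summed to at most 2.64 CPM and those of dendritic cells to at most 1.37 CPM. Those of macrophages and granulocytes summed to 4.63 to 6.83 CPM, mostly Lyz2, with S100a8 at 0, and those of natural killer and gamma-delta cells to 76.2 to 99.3 CPM, nearly all Trdc, with Ncr1 at 0. Markers of earlier double-negative and immature cells summed to 18.9 and 16.6 CPM in WT and 31.7 and 23.7 CPM in KO. That sum was higher in both KO libraries, with no gene of the list called by edgeR with the replicate term. Of its 5 genes, 1 (Il2ra) had both KO libraries above both WT libraries and 0 had both below, against 27.9% and 28.4% of all genes tested. Liver transcripts (Alb, Apoa1, Apoa2) summed to 302 and 63.7 CPM in WT and 322 and 4.21 CPM in KO, higher in replicate 1 of both genotypes. The 11 genes on the list for dividing cells summed to 2952 and 2787 CPM in WT and to 4271 and 3020 CPM in KO. Both KO libraries lay above both WT libraries for 5 of the 11 and below for 3, against 27.9% and 28.4% of all genes tested. Mki67 and Top2a held nearly all of the excess in KO replicate 1: Mki67 had 881 and 792 CPM in WT and 1861 and 952 CPM in KO, and Top2a had 776 and 722 CPM in WT and 1097 and 782 CPM in KO. Cdk1, Aurkb and Pcna were lower in both KO libraries, with Cdk1 at 59.3 and 59.9 CPM in WT and 46.9 and 49.5 CPM in KO. None of the 11 was called by edgeR with the replicate term. In bulk RNA, more cells of a kind and more RNA per cell cannot be told apart, and the part of dividing or earlier cells in the other results was not tested.

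Several promoters of these genes carry the sequence CACGTG, the E-box bound by Myc and Max and by other factors of that family, and these windows are printed because Myc is the best known regulator of the set. RefSeq promoter windows on GRCm38.p6, 250 bases before to 50 bases after the start site, were found for 40 of the 46 genes, and not for Dcaf13, Rrs1, Rrp12, Fbl, Npm1 and Bop1. The motif is the same on both strands, so each match was counted once. It was found in 9 of the 40 genes (22.5%), against 8.09% of all 27025 genes in the table and 8.91% of the 17491 protein-coding ones. The matches run 5′ to 3′ on the gene's strand, with the E-box in capitals and up to 12 bases on each side.
Mybbp1a, chr11:72441355-72441376, plus strand: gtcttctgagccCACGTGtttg
Nop2, chr6:125131811-125131840, plus strand: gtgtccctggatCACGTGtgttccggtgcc
Pes1, chr11:3963965-3963994, plus strand: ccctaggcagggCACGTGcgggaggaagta
Tsr1, chr11:74898092-74898121, plus strand: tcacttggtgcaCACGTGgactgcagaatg
Utp18, chr11:93885769-93885798, minus strand: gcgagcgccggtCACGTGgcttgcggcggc
Utp20, chr10:88826765-88826789, minus strand: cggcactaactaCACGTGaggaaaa
Utp4, chr8:106893643-106893672, plus strand: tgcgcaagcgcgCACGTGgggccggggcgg
Wdr43, chr17:71616220-71616249, plus strand: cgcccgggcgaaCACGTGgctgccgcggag
Rrn3, which encodes the factor that recruits RNA polymerase I to its promoter, had 2 matches, and the 250 bases before its start site show both.
Rrn3, chr16:13780449-13780698, plus strand: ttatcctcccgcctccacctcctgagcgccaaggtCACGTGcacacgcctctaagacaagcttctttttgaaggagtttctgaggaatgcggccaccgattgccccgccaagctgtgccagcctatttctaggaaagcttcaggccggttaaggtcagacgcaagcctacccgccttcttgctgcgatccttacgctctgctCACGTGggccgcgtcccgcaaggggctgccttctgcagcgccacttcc
A match describes these letters and shows no binding, and a window without one shows nothing about the factor. By role, the motif was found in 5 of 14 small-subunit genes, 2 of 11 large-subunit genes, 1 of 4 RNA polymerase I genes, 1 of 4 nucleolar genes and none of 7 snoRNP genes.

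Ribosome biogenesis transcripts did not share a direction between the genotypes. By edgeR's quasi-likelihood test with the replicate number as a term, 2 of the 46, the small-subunit factors Heatr1 and Rrp12, were called higher in KO and none was called lower. DESeq2 without a covariate called 3 higher, Heatr1, Rrp12 and Ncl (adjusted p = 0.0425, 0.0270 and 0.0270), and edgeR without a filter on low counts called 7 higher and 1 lower. By the test without a covariate 0 of the 46 were called in either direction at an adjusted p of 0.05, and of all 15070 genes tested 0.00664% were called higher and 0% lower. With the replicate number as a term, 1.01% of all genes were called higher and 2.20% lower. By edgeR without a covariate at an unadjusted p of 0.05, 16 of the 46 were higher and 1 was lower, where 8.14% of all genes were higher and 8.69% lower.

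Counted by library, 25 of the 46 had both KO libraries above both WT libraries, and 9 had both below; over all genes tested these shares were 27.9% above and 28.4% below. The members' share above was 54.3% and the share below 19.6%. In the remaining 12 the genotypes overlapped. The median log2 fold change was 0.11 over the 46 and -0.01 over all genes, in the test with the replicate term. By role it was 0.54 for RNA polymerase I factors, 0.40 for the nucleolar proteins, 0.20 for snoRNP factors, 0.05 for the small subunit and 0.02 for the large subunit. Without KO replicate 1 and without a covariate the nucleolar median was 0.27 in place of 0.41 and that of the RNA polymerase I factors 0.29 in place of 0.56. With library-total in place of TMM scaling the medians of the small and large subunit turned negative, at -0.030 and -0.060 without a covariate, and that of all 46 was 0.033. No set of these genes was tested as a whole, and 25 higher genes in 4 libraries are not 25 independent results.

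**Figure D1:**
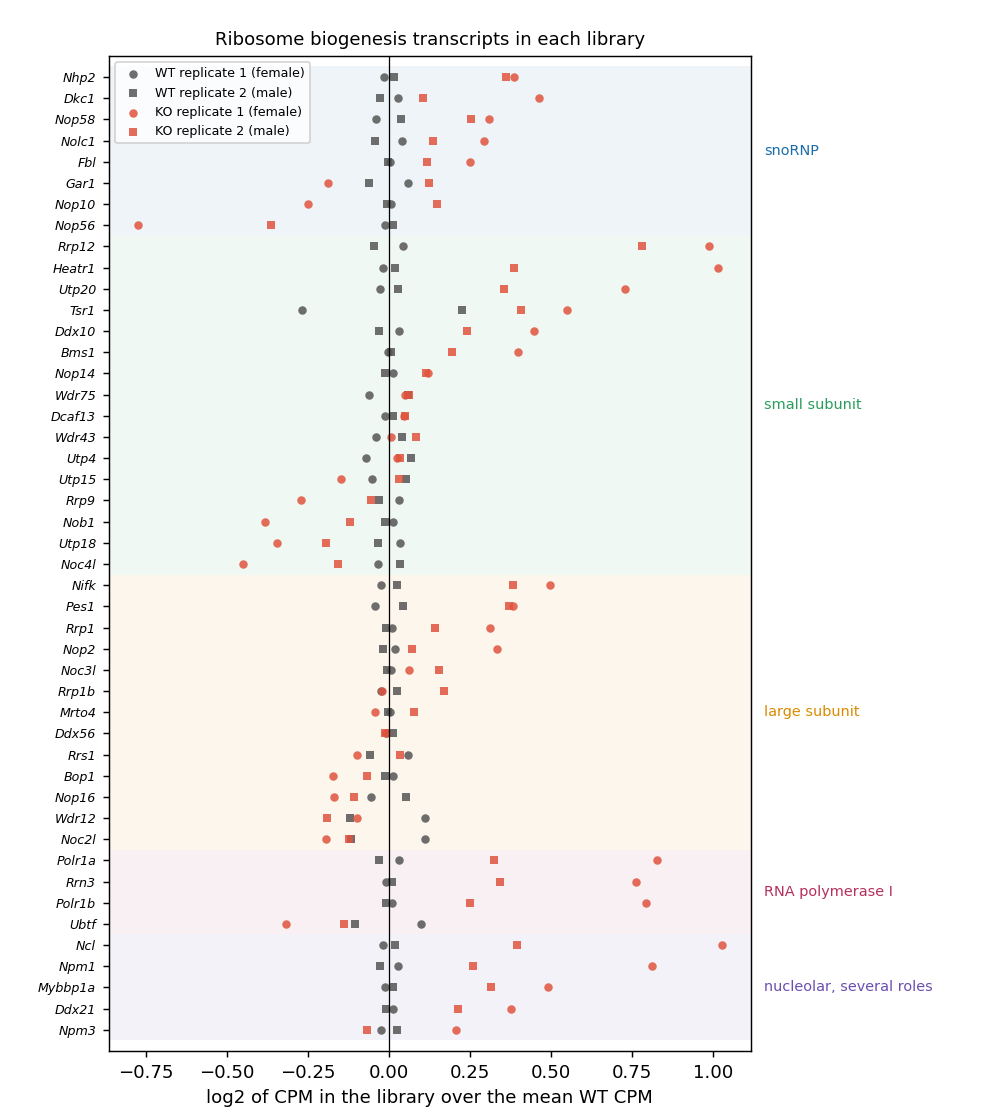
Each row is a gene and each point a library, on the log2 scale of its CPM over the mean WT CPM; grey points are WT, red points KO, circles replicate 1 (female) and squares replicate 2 (male). For 25 genes both red points lie right of both grey points and for 9 both lie left, and the red circle (KO replicate 1) is usually the farther of the red points.

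The WT libraries were close to each other and the KO libraries were not. The WT values lay within 10% of each other for 41 of the 46 genes, and the KO values for 18 of the 46; over all genes tested the shares were 52.2% and 25.3%. KO replicate 1 lay farther from the WT mean than KO replicate 2 for 37 of the 46. The difference within a replicate number, KO minus WT on the log2 CPM scale, was larger in size in the female pair for 39 of the 46 (84.8%), as it was for 73.3% of all genes. The 2 pairs nevertheless ordered the genes alike: the rank correlation between them was 0.85 over the 46 genes and 0.52 over all 15070, a description in which all genes share the same 4 libraries. The 46 had at least 169 counts in each library, while the genes tested include some with far fewer. These comparisons with all genes are therefore not at equal count depth. Of the 46, 28 were higher in KO in both pairs, 11 were lower in both and 7 differed in sign.

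**Figure D2:**
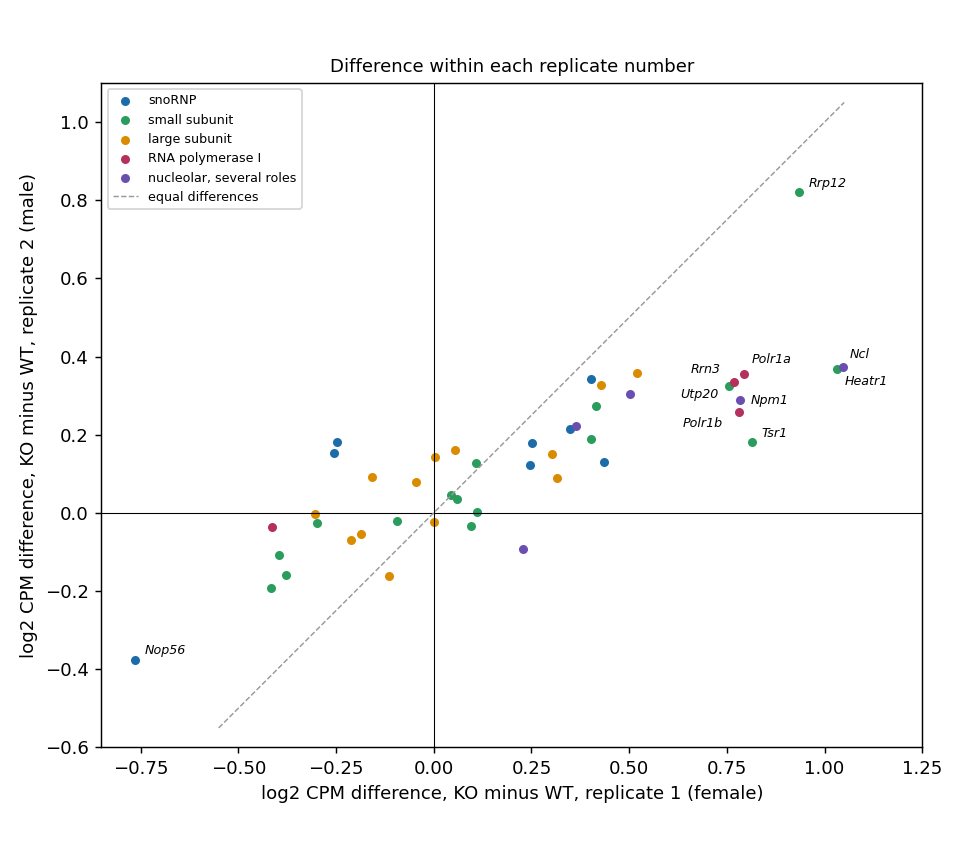
Each point is a gene, with its KO minus WT difference of log2 CPM in replicate 1 (female, x axis) and replicate 2 (male, y axis), coloured by role; the dashed line marks equal differences and genes beyond about 0.6 in size on the x axis are named. Most points lie nearer to 0 on the y axis than on the x axis, and Rrp12 is the named gene nearest to the dashed line.

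Small-subunit factors included both called genes and the highest fold change of the 46, that of Rrp12; Heatr1 came after Ncl. Rrp12, an export and maturation factor of the small-subunit precursor (chromosome 19, 41862851 to 41896173, minus strand, GRCm38), had 7.12 and 6.70 CPM in WT and 13.7 and 11.9 CPM in KO. Both KO values lay well above both WT values, and the pairs differed by a similar log2 0.94 and 0.82. Per length it was the least abundant of the 46 in WT, at 1.59 RPKM (CPM per kilobase of exon), with 169 to 311 counts a library. Its log2 fold change was 0.88 ± 0.21 (standard error; adjusted p = 0.0456 by edgeR with the replicate term, 0.267 without). Heatr1, a scaffold of the early small-subunit processome that also supports RNA polymerase I transcription (chromosome 13, 12395027 to 12440289, plus strand), had 48.8 and 50.1 CPM in WT and 100 and 64.6 CPM in KO. The genotypes did not overlap, but KO replicate 1 stood far above KO replicate 2, and the female pair differed by 1.03 on the log2 scale and the male pair by 0.37. Its log2 fold change was 0.70 ± 0.17 (adjusted p = 0.0442 by edgeR with the replicate term, 0.267 without).

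Both calls lie close to the threshold. DESeq2 with the replicate term gave Heatr1 an adjusted p of 0.0522 and Rrp12 0.114, library-total scaling in edgeR gave 0.0846 and 0.0988, and robust dispersion in edgeR 0.0650 and 0.0636; over 12 alternatives to the test without a covariate the adjusted p ran from 4.7e-05 to 0.746 for Heatr1 and from 0.0027 to 0.754 for Rrp12. Without KO replicate 1 the log2 fold change of Heatr1 was 0.39, and that of Rrp12 0.79.

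Utp20, a large scaffold protein of the processome, followed among the small-subunit factors, with 27.7 and 28.8 CPM in WT and 46.8 and 36.1 CPM in KO. Its KO libraries did not overlap with WT, and its log2 fold change of 0.54 ± 0.16 did not pass (adjusted p = 0.0868 by edgeR with the replicate term). Bms1, the GTPase of the processome and per length the most abundant small-subunit factor (28.8 RPKM in WT), had 139 and 140 CPM in WT and 184 and 160 CPM in KO, again without overlap. The helicase Ddx10 had 47.9 and 45.9 CPM in WT and 63.9 and 55.5 CPM in KO. Tsr1, a late factor of the small-subunit precursor, had 14.0 and 19.7 CPM in WT and 24.7 and 22.3 CPM in KO. In proportion to its level, its WT libraries differed from each other more than those of any other gene of the 46. Of the exon bases of Tsr1, 32.3% are shared with the neighbouring Srr, and fragments over both were left out of the counts, so its level is uncertain.

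The remaining small-subunit factors did not move together. Nop14 and Dcaf13 had both KO libraries above both WT libraries by small margins, with log2 fold changes of 0.12 and 0.05. Noc4l, Nob1, Utp18 and Rrp9 had both KO libraries below, with log2 fold changes of -0.30, -0.25, -0.27 and -0.16. The margin of Rrp9 was small, with 18.1 CPM in WT replicate 2 and 17.8 CPM in KO replicate 2. Nob1, the endonuclease that makes the final cut of the small-subunit rRNA, had 43.0 and 42.2 CPM in WT and 32.6 and 39.2 CPM in KO. The t-UTP proteins Wdr43, Wdr75, Utp4 and Utp15, which bind the nascent precursor and are needed for its transcription, overlapped between the genotypes, with log2 fold changes from -0.06 to 0.06. Heatr1 belongs to that same subcomplex and was the called one.

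**Figure D3:**
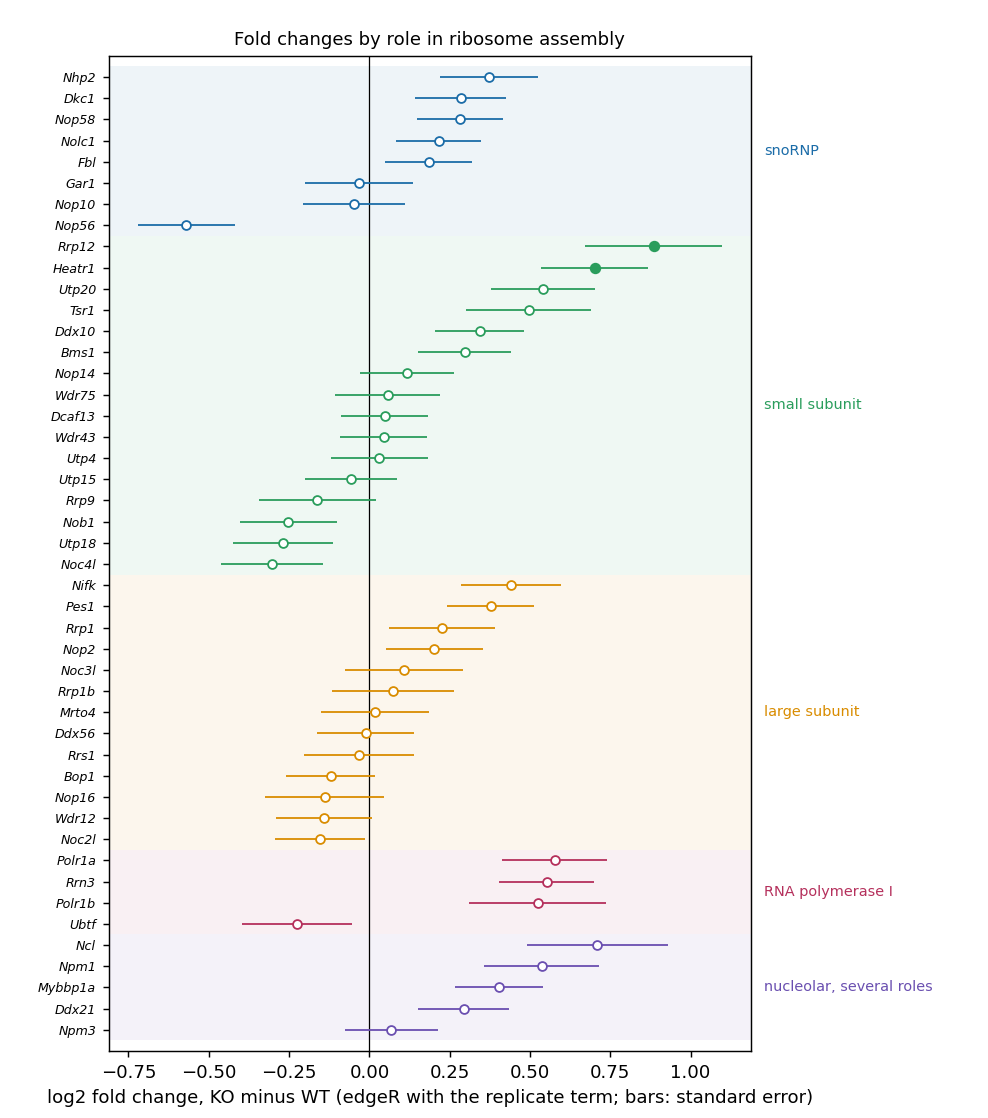
Log2 fold change of each gene, KO minus WT, from edgeR with the replicate term, with its standard error as bars and the genes grouped by role; filled points have an adjusted p under 0.05. Rrp12 at 0.88 and Heatr1 at 0.70 are the only filled points, Nop56 at -0.57 is the lowest point, and the large-subunit factors lie between -0.15 and 0.44.

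Among the snoRNP factors the core proteins of the C/D box particle went different ways. Nop56 (chromosome 2, 130274430 to 130279313, plus strand) had 162 and 165 CPM in WT and 95.4 and 127 CPM in KO. Both KO libraries lay below both WT libraries, with the lower value in KO replicate 1. It had the lowest log2 fold change of the 46, at -0.57 ± 0.15, and did not pass (adjusted p = 0.0608 by edgeR with the replicate term, 0.267 without). Nop58, its paralogue and partner in the particle, had 65.9 and 69.6 CPM in WT and 84.0 and 80.8 CPM in KO, so both KO libraries were higher. The methyltransferase of the same particle, Fbl, had 66.9 and 66.5 CPM in WT and 79.3 and 72.4 CPM in KO. The log2 fold changes of Nop58 and Fbl were 0.28 ± 0.13 and 0.18 ± 0.13, and neither passed (adjusted p = 0.250 and 0.464 by edgeR with the replicate term).

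The H/ACA box proteins were also divided. Dkc1, the pseudouridine synthase, had 53.7 and 51.7 CPM in WT and 72.6 and 56.6 CPM in KO, and Nhp2, which binds the RNA, had 26.6 and 27.2 CPM in WT and 35.1 and 34.5 CPM in KO. For both, the KO libraries lay above the WT libraries, and the KO values of Nhp2 were nearly equal. Nop10 and Gar1, which complete that particle, overlapped between the genotypes. Nop10 had 36.8 and 36.5 CPM in WT and 30.8 and 40.6 CPM in KO, with KO replicate 1 below and KO replicate 2 above both WT libraries. Gar1 showed the same order, with 29.5 and 27.2 CPM in WT and 24.8 and 30.8 CPM in KO. Nolc1, a chaperone of snoRNPs in the nucleolus, had a log2 fold change of 0.22 ± 0.13. Summed over the 8 genes the level was 510 and 508 CPM in WT and 503 and 515 CPM in KO. The lower Nop56 and the 5 genes higher in both KO libraries nearly balanced in this sum. With library totals in place of TMM scaling it was 521 and 526 CPM in WT and 463 and 529 CPM in KO.

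Some of these genes hold snoRNA genes within their bounds, and 4 are printed because their hosts include Nop56, with the lowest fold change, and Ncl, with the largest difference in CPM. Inside 6 of the 46 lie 18 annotated snoRNA genes on the same strand: 5 in Nop56, 4 in Nop58, 3 in Ncl, 3 in Wdr43, 2 in Tsr1 and 1 in Dkc1. The sequences come from GENCODE M21 on GRCm38, 5′ to 3′, with the C box (TGATGA) and the last CTGA, the D box, in capitals for C/D box snoRNAs and the last ACA in capitals for the H/ACA box snoRNA.
Snord110 in Nop56, chr2:130275506-130275573, plus strand: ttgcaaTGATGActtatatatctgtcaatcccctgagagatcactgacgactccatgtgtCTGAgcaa
Snord11 in Nop58, chr1:59704790-59704873, plus strand: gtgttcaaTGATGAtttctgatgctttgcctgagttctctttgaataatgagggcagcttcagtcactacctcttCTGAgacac
Snord82 in Ncl, chr1:86356261-86356330, minus strand: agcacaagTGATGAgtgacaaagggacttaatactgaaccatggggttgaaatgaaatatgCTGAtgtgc
Snora75 in Ncl, chr1:86351169-86351301, minus strand: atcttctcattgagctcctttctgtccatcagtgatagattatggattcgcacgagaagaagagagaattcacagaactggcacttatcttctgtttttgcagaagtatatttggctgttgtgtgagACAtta
Of the 6 host genes, 4 had both KO libraries above both WT libraries and Nop56 had both below, where 27.9% and 28.4% of all genes did. The snoRNAs themselves carry no poly(A) tail, and poly-T selection does not target them. In Nop56, 8.12% of exon bases are shared with snoRNA genes or with Idh3b, and fragments over both were left out of its counts.

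Large-subunit factors had no called gene and fold changes near 0 for most members. Nifk, a nucleolar RNA-binding partner of the proliferation antigen Ki-67, had 25.1 and 26.0 CPM in WT and 36.1 and 33.3 CPM in KO. Its KO libraries lay above WT by more than the KO libraries differed, and its log2 fold change was 0.44 ± 0.16 (adjusted p = 0.134 by edgeR with the replicate term). Pes1, Bop1 and Wdr12 form the PeBoW complex, which is needed to process the large-subunit rRNA, and the 3 genes did not share a direction. Pes1 had 48.4 and 51.4 CPM in WT and 65.1 and 64.5 CPM in KO, both KO libraries being higher and nearly equal. Bop1 had 56.7 and 55.6 CPM in WT and 49.8 and 53.5 CPM in KO, both KO libraries being lower. Wdr12 had 212 and 181 CPM in WT and 184 and 172 CPM in KO, where the genotypes overlapped. The log2 fold changes were 0.38 ± 0.14 for Pes1, -0.12 ± 0.14 for Bop1 and -0.14 ± 0.15 for Wdr12, and none passed (adjusted p = 0.142, 0.657 and 0.625 by edgeR with the replicate term).

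Rrp1, a nucleolar factor of large-subunit maturation, was per length the most abundant gene of this group at 88.4 RPKM in WT, with 297 and 293 CPM in WT and 367 and 326 CPM in KO. Its paralogue Rrp1b stood at 1.79 RPKM in WT and overlapped between the genotypes. Nop2, an rRNA methyltransferase, and Noc3l also had both KO libraries above WT, with log2 fold changes of 0.20 and 0.11. Nop16 and Noc2l had both KO libraries below, with log2 fold changes of -0.14 and -0.15, and Noc2l shares 14.4% of its exon bases with Samd11. The margin of Noc2l was small, with 77.6 and 66.2 CPM in WT and 62.8 and 66.0 CPM in KO. Rrs1, Ddx56 and Mrto4 lay within 0.04 of 0 on the log2 scale. Summed over the 13 genes the level was 871 and 826 CPM in WT and 922 and 873 CPM in KO; both KO sums were higher than both WT sums, but with library totals in place of TMM scaling the ratio of the means was 0.999.

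Of the RNA polymerase I factors, the 2 largest enzyme subunits and the recruiting factor were higher in both KO libraries and the DNA-binding factor was lower. Polr1a, which encodes the largest subunit, had 27.9 and 26.7 CPM in WT and 48.4 and 34.2 CPM in KO. Polr1b, the second subunit of the catalytic core, had 9.74 and 9.62 CPM in WT and 16.8 and 11.5 CPM in KO. Rrn3 had 53.7 and 54.3 CPM in WT and 91.6 and 68.5 CPM in KO. In all 3 the WT libraries were almost equal, KO replicate 2 lay above both and KO replicate 1 far above both. The log2 fold changes were 0.58 ± 0.16 for Polr1a, 0.52 ± 0.21 for Polr1b and 0.55 ± 0.15 for Rrn3. None passed by edgeR with the replicate term (adjusted p = 0.0727, 0.183 and 0.0629) or without it (0.267, 0.296 and 0.267).

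Ubtf encodes UBF, the architectural factor that coats the ribosomal DNA. It had 360 and 313 CPM in WT and 270 and 305 CPM in KO. Both KO libraries were lower, but KO replicate 2 was close to WT replicate 2 and on the log2 scale the female pair differed by -0.41 and the male pair by -0.04. The log2 fold change was -0.23 ± 0.17 (adjusted p = 0.484 by edgeR with the replicate term). Per length Ubtf stood far above the other 3 in WT, at 51.3 RPKM against 12.5 for Rrn3, 2.30 for Polr1a and 1.67 for Polr1b. It therefore dominated the sum of the group, 451 and 403 CPM in WT against 427 and 419 CPM in KO, where the genotypes overlapped although 3 of the 4 genes were higher in both KO libraries.

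The nucleolar proteins with several roles gave the largest difference in amount. Ncl encodes nucleolin, an RNA-binding protein of ribosomal DNA transcription and precursor folding, and had 566 and 582 CPM in WT and 1170 and 754 CPM in KO. Npm1, the nucleolar histone chaperone nucleophosmin, had 257 and 248 CPM in WT and 443 and 302 CPM in KO. For both genes the WT libraries were within 10% of each other and both KO libraries were higher, KO replicate 1 most of all. The log2 fold changes were 0.71 ± 0.22 for Ncl and 0.54 ± 0.18 for Npm1 (adjusted p = 0.0944 and 0.116 by edgeR with the replicate term, 0.267 and 0.269 without). DESeq2 called Ncl also with the replicate term (adjusted p = 0.0204). Mybbp1a, a nucleolar regulator of transcription, had 72.0 and 73.2 CPM in WT and 102 and 90.3 CPM in KO, and its log2 fold change was 0.40 ± 0.14 (adjusted p = 0.121 by edgeR with the replicate term).

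Ddx21, a helicase that couples RNA polymerase I transcription to rRNA modification, had 118 and 117 CPM in WT and 152 and 136 CPM in KO, again with both KO libraries higher. Npm3, a smaller relative of Npm1, had 48.1 and 49.7 CPM in WT and 56.3 and 46.6 CPM in KO, so the KO libraries lay on either side of WT. Genes with near-identical copies elsewhere in the genome, such as processed pseudogenes of Npm1, Npm3 and Mrto4, lose fragments that map to several places, so their levels are uncertain.

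Summed over the 46 genes, the level was 3551 and 3480 CPM in WT and 4559 and 3865 CPM in KO, a ratio of means of 1.20. Ncl alone made up 55.7% of that difference, and without it the ratio was 1.11. With library totals in place of TMM scaling the ratio was 1.13 for the 46 genes and 1.04 without Ncl. On that scaling it was 1.43 for the nucleolar group and 1.07 for the small-subunit group. The nucleolar group was at 1062 and 1069 CPM in WT and 1923 and 1329 CPM in KO, and the small-subunit group at 658 and 674 CPM in WT and 784 and 727 CPM in KO. An exact two-sided permutation test of 2 libraries against 2 cannot go below p = 0.333, which the sums of all 46 and of these groups reached. Of the sum, Ncl took 16.3% in WT and 22.8% in KO.

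**Figure D4:**
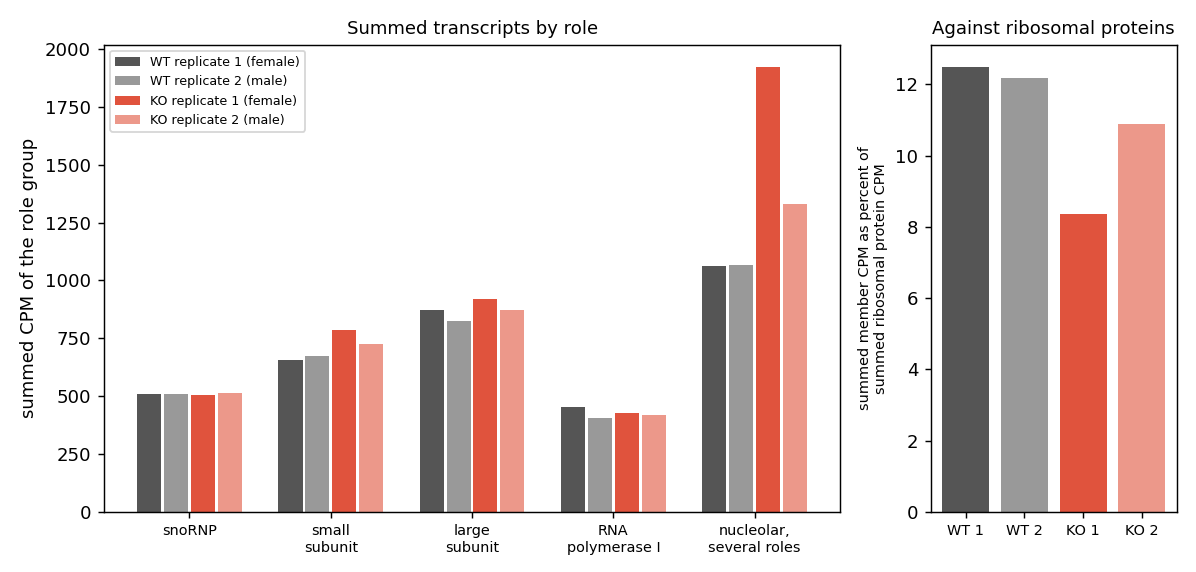
Left, summed CPM of each role group in the 4 libraries (grey WT, red KO, paler bars replicate 2); right, the summed CPM of the 46 genes as a percent of the summed CPM of the cytosolic ribosomal protein genes in the same libraries. The nucleolar group stands at 1923 and 1329 CPM in KO against 1062 and 1069 CPM in WT. The snoRNP bars are nearly level, the RNA polymerase I bars overlap between the genotypes, and the percent on the right is lower in both KO libraries.

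Cytosolic ribosomal protein genes, the end users of this machinery, were nearly all higher in KO. Of 86 listed genes 83 were tested, and the median log2 fold change was 0.60. Both KO libraries lay above both WT libraries for 78 of the 83 and below for 1, against 27.9% and 28.4% of all genes. By edgeR with the replicate term 7 of the 83 were called higher and 1 lower, where 1.01% and 2.20% of all genes were. The 86 genes summed to 28430 and 28546 CPM in WT and to 54504 and 35544 CPM in KO. The 46 assembly genes were thus equal to 12.5% and 12.2% of the ribosomal protein sum in WT and to 8.36% and 10.9% in KO, lower in both KO libraries (exact permutation p = 0.333, the smallest this design allows). The share of counts from the mitochondrial genome moved with the same libraries, at 1.33% and 1.45% in WT and 3.30% and 2.03% in KO, and its part in the result was not tested.

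The wider assembly pathway held few called genes. A list of 124 further factors, with 10 of snoRNP assembly, 41 of the small subunit, 50 of the large subunit, 11 of RNA polymerase I and 12 of the RNA exosome, was tested whole. By edgeR with the replicate term 0 were called higher (1.01% of all genes) and 2 lower (2.20% of all genes). By edgeR without a covariate 0 were called in either direction, with 12 higher and 7 lower at an unadjusted p of 0.05, where 8.14% and 8.69% of all genes were. Both KO libraries lay above WT for 43 of the 124 (34.7%) and below for 30 (24.2%), against 27.9% and 28.4% of all genes, and the median log2 fold change was 0.01. The called genes were Ppan, a large-subunit factor, with 36.0 and 36.8 CPM in WT and 17.2 and 26.4 CPM in KO, and Taf1d, a subunit of the RNA polymerase I selectivity factor, with 101 and 94.0 CPM in WT and 47.0 and 72.6 CPM in KO. Both fell, by 0.77 ± 0.18 and 0.73 ± 0.17 on the log2 scale (adjusted p = 0.0419 and 0.0425 by edgeR with the replicate term, 0.267 for each without). Like Nop56, these genes hold snoRNA genes, 2 in Ppan and 8 in Taf1d. Of the 124, 4 hold snoRNA genes; Ppan, Taf1d and Gnl3 had both KO libraries below WT and Nop53 had both above. The RNA polymerase I genes of this list were divided: of the 11, 3 were above in both KO libraries and 3 below, with a median log2 fold change of -0.04.

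The E-box genes were compared with the others as a description. Of the 9 with the motif, 6 had both KO libraries above both WT libraries and Utp18 had both below, with a median log2 fold change of 0.38 in the test with the replicate term. Of the 31 without it, 15 were above and 7 below, with a median of 0.07. Among all genes tested 27.9% were above and 28.4% below. Of the genes with the highest fold changes, Heatr1, Ncl, Polr1a and Polr1b had no CACGTG in their windows. Rrn3, Utp20 and Tsr1, at 0.55, 0.54 and 0.50, had it, and Rrp12 and Npm1 had no window. Whether the motif has a part in the differences was not tested. Myc itself had 10.2 and 9.83 CPM in WT and 13.0 and 14.7 CPM in KO. Both KO libraries were higher, with KO replicate 2 the highest, and the log2 fold change of 0.46 ± 0.20 did not pass (adjusted p = 0.213 by edgeR with the replicate term).

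Fold changes were also set against the exon length of the gene model. That length joins all annotated exons of a gene and can exceed the length of any 1 transcript. The 15 genes with the most exon bases (4854 to 11955) had a median log2 fold change of 0.29 in the test with the replicate term, with 10 above in both KO libraries and 1 below. The middle 16 had a median of 0.20, with 10 above and 4 below, and the shortest 15 (1109 to 2957 bases) one of -0.01, with 5 above and 4 below. Over all genes tested, the longest, middle and shortest of 3 equal bins had medians of 0.05, -0.04 and -0.04; of the 5024 longest, 1653 were above and 1271 below. The rank correlation of exon bases with fold change was 0.28 across the 46 genes and 0.09 across all 15070, a description across genes that share the same libraries. Whether length has a part in the pattern by role was not tested.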

How the data were processed

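RNA from sorted DP thymocytes was sequenced as 4 libraries, 2 per genotype. The deposited values are raw counts of fragments per gene; per the submitters' processing notes the authors used featureCounts 1.6.4 and HISAT2 on GRCm38 after trimming with Trim Galore 0.5.0, and DESeq2, while the file header names featureCounts 1.6.3 and Ensembl 98. Per the file headers, exons were counted without strand, and fragments that map to several places or overlap several genes were left out, so sense and antisense RNA cannot be told apart. Gene lengths (bases, as deposited per the file headers) gave the RPKM values. They join all annotated exons of a gene, so levels per length depend on the annotation. Symbols came from GENCODE M21, which matched 55154 of 56239 IDs.

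Counts were analysed in R 4.3.3 with edgeR 4.0.16: filterByExpr kept 15070 genes, TMM factors were 0.919 to 1.04, and quasi-likelihood F tests, KO minus WT, were adjusted by Benjamini-Hochberg over all genes (threshold 0.05). The test without a covariate has 2 residual degrees of freedom and that with the replicate number as a term has 1. Within-pair differences use log2 CPM, with 2 as the prior count. The scripts were tested on simulated counts. Replicates were distinct libraries: chi-square per degree of freedom was 12.4 for the WT pair and 55.6 for the KO pair. Deviations from the group means correlated at 0.472 between WT and KO replicate 1 over 15070 genes, and both replicates 1 are female by Xist, so the number splits the libraries by sex.

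Values in each library are given for genes called in either test, for the 3 largest fold changes and the 2 highest mean CPM of each role group, and for all RNA polymerase I factors; some other genes were added after their values were seen. The members and the gene lists were chosen with earlier results of these data known. Alternatives were DESeq2 1.42.0, limma-voom (limma 3.58.1), other scalings, no filter, robust dispersion and leaving out each library. The marker list for mature single-positive cells is not reported here.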

Additional observations from a re-analysis of the deposited data

Results flagged for a closer look

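For 7 genes the difference between KO and WT had opposite signs in the female and the male pair. With 1 KO and 1 WT library per sex the difference between the sexes was not tested, and these are differences of log2 CPM, KO minus WT. Nop10 differed by -0.255 (female pair) and 0.154 (male pair), and Gar1 by -0.247 and 0.182; both belong to the H/ACA box particle. Rrs1 differed by -0.157 and 0.092 and Mrto4 by -0.046 and 0.080, both of them large-subunit factors. Utp4 of the small-subunit processome went the other way, with 0.096 and -0.034, and Npm3 did too, with 0.229 and -0.092. Ddx56 was the seventh, with 0.000415 and -0.024, which are both close to 0. A sign that differs between pairs was seen for 4184 of all 15070 genes.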

How the results depend on the processing

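The replicate number pairs the libraries by sex. With the replicate block 2 members were called higher in place of 0, and 2 of the other pathway genes lower in place of 0. Without a covariate, DESeq2 called 3 members higher, DESeq2 with the block 1, and edgeR with no filter 7 higher and 1 lower. With the block, library-total scaling and robust dispersion each called 0 higher, DESeq2 1, and no filter 7 higher and 1 lower. Of the other pathway genes, no filter called 2 higher and 6 lower with or without the block, DESeq2 with the block 1 lower, library-total scaling and robust dispersion with the block 0 lower, and upper-quartile scaling with the block 1 higher. The cause of these shifts was not tested.

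Leaving out 1 library gave 0 to 20 members higher and 0 to 5 lower, and 0 to 20 of the other pathway genes higher and 0 to 29 lower. The highest numbers came without KO replicate 2; without KO replicate 1 there were 2 members higher and 1 lower. The lone KO library was then assumed to vary like WT. Members whose remaining KO libraries all lay below the remaining WT libraries numbered 11 to 14 in place of 9. Leaving out a library can only keep or raise such a count, below or above WT, so these numbers say nothing about direction. Median log2 fold changes ran from 0.11 to 0.16 for all members, 0.13 to 0.27 for snoRNP factors, 0.021 to 0.10 for the small subunit, -0.027 to 0.076 for the large subunit, 0.29 to 0.77 for RNA polymerase I factors and 0.27 to 0.49 for the nucleolar proteins. With library-total scaling they were, in the same order, 0.033, 0.12, -0.030, -0.060, 0.46 and 0.32.

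Library-total scaling turned 7 members negative: Wdr43 (-0.035), Wdr75 (-0.026), Utp4 (-0.052), Dcaf13 (-0.034), Rrp1b (-0.000879), Mrto4 (-0.060) and Npm3 (-0.014). Leaving out 1 library changed the sign of 10 members, with ranges of -0.25 to 0.15 for Nop10, -0.19 to 0.13 for Gar1, -0.0021 to 0.12 for Wdr75, -0.039 to 0.10 for Utp4, -0.15 to 0.036 for Utp15, -0.027 to 0.17 for Rrp1b, -0.10 to 0.039 for Rrs1, -0.022 to 0.0012 for Ddx56, -0.048 to 0.082 for Mrto4 and -0.064 to 0.20 for Npm3. No sign changed under DESeq2, limma-voom, upper-quartile scaling, no filter, robust dispersion or the block. With 1 or 2 residual degrees of freedom and 2 libraries a genotype, a fold change that misses the threshold is not shown to be absent.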
